A study of Mus musculus with 7 samples.

Results

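Terminal effector CD8 T cells are the short-lived killer cells that dominate the peak of an acute antiviral response, and the surface lectin Klrg1 is their usual mark. Here they were chosen by measured values, the UMIs of 6 genes in each cell: 1 or more of Cd8a or Cd8b1, none of Cd4, 1 or more of Klrg1, and none of Il7r or Tcf7. A UMI is a molecular barcode that counts 1 captured mRNA molecule. The rule found 2199 cells among the 4702 CD8-like cells, those that pass the first 2 conditions, of 2 libraries, which held 9215 cells, of 16427 cells in the series. They are called terminal effector cells below, and the rest, 1872 and 631 cells, are the other CD8-like cells.

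Both libraries hold CD44high T cells from the spleen of wild type C57bl/6 mice at day 7 of an acute infection with lymphocytic choriomeningitis virus (LCMV), strain Armstrong. CD44 marks activated T cells, and CD4+ and CD8+ cells were sorted apart and mixed in equal parts before capture, so that the ratio of the lineages was set by the mixing. The other 5 libraries of the series hold sorted helper cells that bind a class II tetramer with the viral GP66 peptide, either wild type or carrying Ox40-Cre, a YFP reporter and intact or floxed Thpok. They are used here only for counts in the closing section. The labels give neither the age nor the number of mice behind a library, nor whether mice were pooled.

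During an acute infection, activated CD8 T cells split into effectors that kill and mostly die, and precursors that persist as memory cells. The first kind is driven by T-bet, Zeb2, Blimp1 and Id2 and carries Klrg1, the fractalkine receptor Cx3cr1 and the egress receptor S1pr5. The second keeps the interleukin-7 receptor (Il7r), TCF-1 (Tcf7), Id3 and Bcl2 and the lymph node homing receptor Ccr7.

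Replicate 1 joins 3 capture wells and gave 7022 cells, and replicate 2 gave 2193. Summed terminal effector cells held 8918399 UMIs in replicate 1 and 2836835 in replicate 2. Their median UMI count per cell was 4229 and 5604, against 4112 and 4863 in the other CD8-like cells, so that they were slightly deeper in both libraries. The replicates come from mice of different sex: terminal effector cells held Xist, a transcript of the inactive X chromosome, at 683.8 UMIs per 1000000 (CPM) in replicate 1 and at 0 in replicate 2, and the Y-linked gene Ddx3y at 0 and 41.60 CPM. Any 2 wells shared 2 to 11 cell barcodes, near the 4.54 to 9.99 that drawing barcodes at random would give.

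Terminal effector cells made up 48.2% of CD8-like cells in replicate 1 (1743 of 3615 cells, 95% exact binomial interval 46.6 to 49.9%) and 41.95% in replicate 2 (456 of 1087 cells, 39.0 to 44.95%). The 3 wells of replicate 1 gave 49.35%, 50.0% and 46.6%. The intervals of the replicates do not overlap, but they cover counting error only, and 2 libraries of 1 group allow no test. Of the remaining CD8-like cells, 323 and 79 had Klrg1 together with Il7r or Tcf7, 806 and 356 had no UMI of the 3 genes, and 743 and 196 had Il7r or Tcf7 without Klrg1. The cells without any of the 3 were the larger share in replicate 2, at 32.75% against 22.3% of CD8-like cells.

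**Figure D1:**
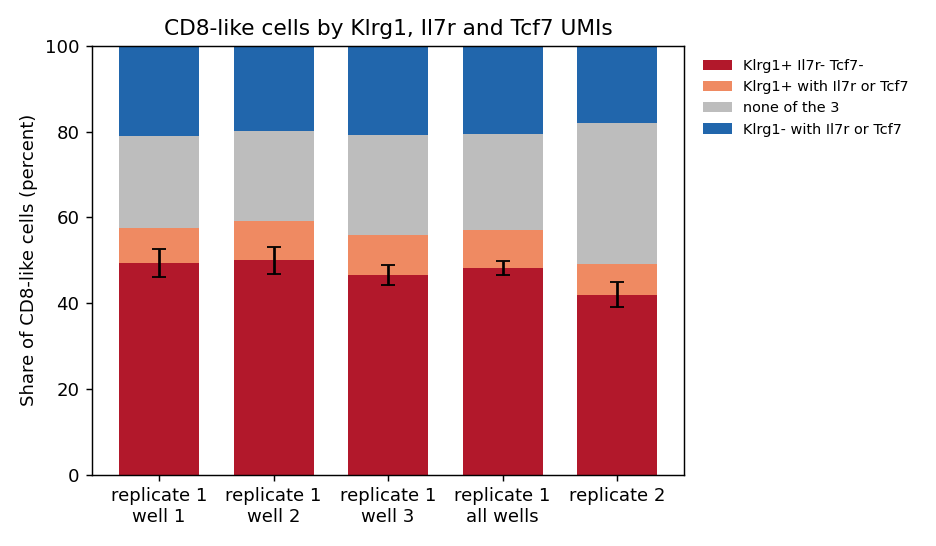
Stacked bars give the share (percent) of CD8-like cells in each of 4 classes set by UMIs of Klrg1, Il7r and Tcf7, for each well of replicate 1, for replicate 1 as a whole and for replicate 2; black bars are 95% exact binomial intervals of the bottom class. Terminal effector cells, at the bottom in red, hold 46.6 to 50.0% in the wells of replicate 1 and 41.95% in replicate 2.

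The gate depends on how deeply a cell was read. When each cell was thinned at random to 2000 UMIs and gated again, the share was 36.45% and 28.6%. Demanding 2 Klrg1 UMIs gave 32.45% and 28.2%, and using Klrg1 without Il7r and Tcf7 gave 57.15% and 49.2%. Replicate 1 was above replicate 2 by each of these gates. Among CD4-like cells, which have Cd4 and lack both Cd8 chains, 5.83% and 4.09% had a Klrg1 UMI at median depths of 4144 and 5094 UMIs. The fluid of near-empty droplets, those with 1 to 50 UMIs, held Klrg1 at 90.75 to 268.1 CPM, and the part of such free RNA in the gate was not tested.

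The 3 genes of the gate are given as a description. Klrg1 stood at 508.1 and 415.6 CPM in terminal effector cells and at 381.3 and 335.3 CPM in cells that also had Il7r or Tcf7. Il7r reached 318.8 and 184.3 CPM, and Tcf7 248.6 and 329.5 CPM, in cells with either gene and no Klrg1. Both are 0 in terminal effector cells by the rule. Cd8a, also used by the rule, was at 453.0 and 482.6 CPM in terminal effector cells.

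The label was checked with the markers the rule did not use: Cx3cr1, Zeb2, S1pr5 and Gzma. After thinning, 31.4% and 20.5% of terminal effector cells had UMIs of at least 3 of the 4. The share was 8.69% and 6.63% in the other CD8-like cells, 0.431% and 0.188% in CD4-like cells and 0 of 15 B-like cells, which replicate 1 alone held. Within the other CD8-like cells it was 13.7% and 9.17% in those with none of the 3 gate genes. It was 11.95% and 6.41% in those with Klrg1 and Il7r or Tcf7, and 1.94% and 2.14% in those with Il7r or Tcf7 alone. Conversely, 5.89% and 13.9% of terminal effector cells had none of the 4 at that depth. The label thus held for the class, while some single cells showed none of these markers at this depth.

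For tests, UMIs were summed per library and class, so that each arm of a comparison has 2 values, and the library entered as a block. Fold changes are on the log2 scale with their standard error, and a gene was called at an adjusted p under 0.05 over all genes tested (edgeR's quasi-likelihood test, Benjamini-Hochberg). With 2 libraries the fit has 1 residual degree of freedom and borrows its spread from all genes. The block takes up the difference between the libraries, and each p-value sets the difference between the arms against this borrowed spread. It therefore says little about how far a single gene's difference varies from 1 library to the other. Beyond the difference in sex, nothing says how the libraries relate, so part of the variation between them may be technical. A call is made on both libraries together and can rest on 1 of them, as for Klra6 and the haemoglobin genes given further on. The classes were cut from the same cells by Klrg1, Il7r and Tcf7, so a gene that varies with those 3 from cell to cell differs by the choice of classes.

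Against the other CD8-like cells, terminal effector cells had 722 genes higher (7.28% of 9911 tested) and 751 lower (7.58%), 14.9% in all. The 2 libraries of an arm lay outside those of the other for 17.8% of tested genes in the higher and 18.7% in the lower direction. DESeq2 called 136 and 161, all among the same genes, and after thinning to 2000 UMIs 248 and 326 were called. Without the library block 0 and 7 were called by edgeR, with 377 and 504 at an unadjusted p under 0.05. The egress receptor S1pr5, granzyme A, Zeb2 and Cx3cr1 were among the 12 largest increases by the naming rule, and genes known from naive, memory and lymph node homing cells were among the largest decreases. On the list of terminal effector genes, 14 of 18 tested genes were higher and 0 lower, with a median log2 fold change of 0.59 beside -0.005 over all genes. This list holds markers that named the cells, so its direction is no independent evidence.

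S1pr5, a sphingosine 1-phosphate receptor that lets cells leave tissue, stood at 159.7 and 70.85 CPM in terminal effector cells and at 48.49 and 20.69 CPM in the others. It was lower in replicate 2 in both arms, and the lowest terminal effector value was still above the highest of the others. The log2 fold change was 1.71 ± 0.085 (SE, adjusted p = 5.6e-11, edgeR). Zeb2, a transcriptional repressor that acts with T-bet, was at 230.5 and 194.9 CPM against 75.74 and 69.07 CPM, 1.55 ± 0.065 on the log2 scale (adjusted p = 4.7e-12). Cx3cr1, the receptor for fractalkine on vessel walls, was at 308.0 and 187.5 CPM against 113.9 and 75.19 CPM, 1.38 ± 0.062 (adjusted p = 1.1e-11). The arms did not overlap for either gene, and within each well of replicate 1 both were higher in terminal effector cells as well, with Zeb2 at 193.4, 202.7 and 267.5 CPM against 63.05, 56.89 and 91.55 CPM.

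Gzma encodes granzyme A, a serine protease of cytotoxic granules. It was at 9402 and 6278 CPM in terminal effector cells and at 2982 and 2009 CPM in the other CD8-like cells. The arms do not overlap, and the log2 fold change was 1.64 ± 0.065 (adjusted p = 3.3e-12, edgeR). A Gzma UMI was in 88.1% and 80.2% of terminal effector cells after thinning, in 63.7% and 56.8% of those with none of the 3 gate genes and in 24.4% and 20.3% of those with Il7r or Tcf7 alone. In CD4-like cells it was in 8.47% and 6.59%, and the fluid of near-empty droplets held Gzma at 1751 to 3796 CPM.

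**Figure D2:**
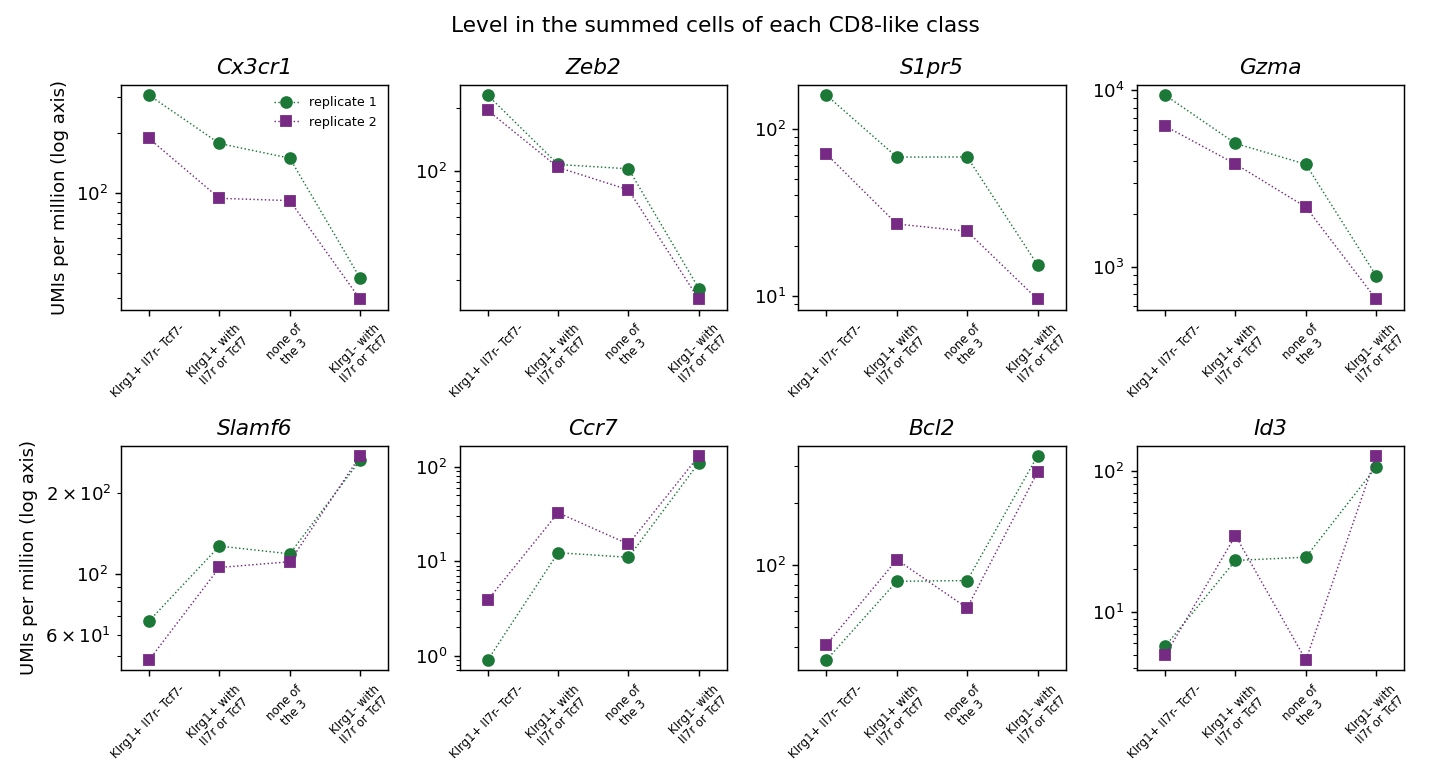
Points give the level (CPM, log axis) of 8 genes in the summed cells of the 4 CD8-like classes, circles for replicate 1 and squares for replicate 2; dotted lines only join points of a replicate. Cx3cr1, Zeb2, S1pr5 and Gzma are highest in the terminal effector cells at left in both replicates and lowest in cells with Il7r or Tcf7 alone at right, where Slamf6, Ccr7, Bcl2 and Id3 are highest.

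The granzyme A gene lies at chr13:113093825-113100981 on the minus strand (GRCm38). The stretch just upstream of its start site is shown because Gzma is the most abundant of the called markers and its promoter holds matches to letters bound by Zeb and Runx factors. It runs from base -150 to base -1 and lies at chr13:113100982-113101131, minus strand, from RefSeq on GRCm38.p6. Capitals mark CAGGTG (an E-box that Zeb factors bind, on either strand) at bases -135 and -79, and the Runx letters TGTGGTT on the opposite strand at base -51.
Gzma upstream: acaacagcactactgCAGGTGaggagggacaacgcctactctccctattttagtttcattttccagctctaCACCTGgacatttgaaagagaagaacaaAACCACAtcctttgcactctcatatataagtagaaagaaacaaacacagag
In windows from 250 bases before to 50 after each start, the E-box was in 14.2% of promoters of genes higher in terminal effector cells, 20.3% of those lower, 17.2% of all tested and 20.2% of all in the table. The Runx letters were in 3.12%, 4.86%, 3.85% and 5.27%. A T-box core, GGTGTGA on either strand, was in 5.19%, 2.64%, 3.17% and 3.98%, and CTTTGAA, bound by TCF and LEF factors, in 4.45%, 4.44%, 3.53% and 5.14%. The windows of S1pr5, Zeb2, Cx3cr1, Id3 and Dapl1 held none of the 4, and that of Tbx21 held 1 E-box. The table had promoters for 551 of 722 and 539 of 751 called genes. These are counts of letters, not of bound sites.

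Genes of the killing machinery were mostly higher: 12 of 20 tested rose and 2 fell, with a median of 0.43. Gzmb, encoding granzyme B, was at 1573 and 2589 CPM in terminal effector cells and 917.0 and 1779 CPM in the others, a log2 fold change of 0.65 ± 0.061 (adjusted p = 4.1e-07, edgeR). The arms overlap for Gzmb, which was higher in replicate 2 in both. Gzmk, another granzyme, was at 346.8 and 344.4 CPM against 221.6 and 248.0 CPM (0.56 ± 0.056). Prf1, the pore-forming perforin, was low, at 25.79 and 23.62 CPM against 16.96 and 18.36 CPM (0.52 ± 0.134).
The chemokines Ccl3 and Ccl4, which attract other immune cells, rose by more. Ccl4 was at 156.6 and 239.4 CPM against 91.61 and 76.94 CPM, 1.08 ± 0.118 on the log2 scale, and Ccl3 at 39.24 and 56.75 against 22.22 and 17.49 CPM, 1.09 ± 0.148. In replicate 2, 1 terminal effector cell held 30.5% of the Ccl4 UMIs and 30.4% of the Ccl3 UMIs. Ccl5, the most abundant chemokine, took 35200 and 19120 CPM of terminal effector RNA against 21590 and 13010 CPM (0.62 ± 0.079); replicate 2 was lower in both arms, which overlap.
Against the direction of the group, Xcl1, a chemokine for cross-presenting dendritic cells, was at 0.336 and 0.705 CPM against 24.95 and 11.66 CPM. Its log2 fold change was -5.62 ± 0.344 (adjusted p = 1.0e-09, edgeR). Gzmm, granzyme M, was at 46.98 and 37.72 CPM against 72.02 and 49.84 CPM (-0.57 ± 0.10).

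Of the killer lectin receptors, natural killer cell receptors that effector T cells can take up, 9 of 14 tested were higher and 1 lower, with a median of 0.48. Klre1, which pairs with other lectins, was at 132.1 and 105.8 CPM against 56.26 and 46.34 CPM, with no overlap and a log2 fold change of 1.20 ± 0.079 (adjusted p = 2.7e-09, edgeR). The Klrd1 subunit CD94 was at 698.3 and 574.6 CPM against 494.6 and 420.0 CPM (0.47 ± 0.053), and its inhibitory partner Klrc1 at 428.3 and 367.7 against 273.0 and 275.4 CPM (0.54 ± 0.058). Klrk1, the activating receptor NKG2D, was at 516.8 and 362.0 CPM against 366.9 and 282.1 CPM, where the libraries overlap (0.43 ± 0.055).
Genes of the Klra family (Ly49 receptors) are close copies of each other, so that reads may be split between them, and the values are uncertain. Klra9, at 9.19 and 4.93 CPM against 4.05 and 0.291 CPM, rose by 1.40 ± 0.320, and Klra6 fell by 0.93, but Klra6 was lower in replicate 1 alone (3.36 against 9.74 CPM, and 9.16 against 8.16 CPM in replicate 2).
Many of these receptors are also natural killer cell genes. Of the natural killer list of 8 genes, Klra9 and Klrb1c (10.43 and 5.29 CPM against 6.57 and 1.75 CPM, 0.77 ± 0.246) were called higher and Tyrobp lower. The Tyrobp call (-0.68) was lost after thinning (-0.15). It was also lost with cells holding B cell or myeloid UMIs left out (-0.09), and with dividing cells left out (-0.03). The list summed to 51.2 and 39.5 CPM in terminal effector cells and 58.4 and 28.0 CPM in the other CD8-like cells, and a UMI of it was in 14.9% and 13.8% against 11.3% and 7.92% of cells, unthinned. Ncr1, its defining gene, was at 0 UMIs in terminal effector cells of both libraries, and at 3 and 0 UMIs in the other CD8-like cells. The part of natural killer cells in these values was not tested.

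Among transcription factors that set T cell fates, 6 of 18 tested rose and 5 fell. Tbx21, encoding T-bet, was at 136.8 and 141.7 CPM against 80.88 and 92.97 CPM, with no overlap and a log2 fold change of 0.69 ± 0.070 (adjusted p = 1.1e-06, edgeR). Prdm1, encoding Blimp1, was sparse, at 18.05 and 15.86 CPM against 11.60 and 11.07 CPM (0.59 ± 0.160), and Runx3, the factor of the CD8 lineage, rose by 0.24 ± 0.069.
Id2 did not pass: it was at 1079 and 994.1 CPM in terminal effector cells and 985.7 and 960.0 CPM in the others (0.08 ± 0.054, adjusted p = 0.36). Its highest level was in cells with none of the 3 gate genes, at 1175 and 1087 CPM, or in those with Klrg1 and Il7r or Tcf7, at 1158 and 1147 CPM. Eomes, the T-box factor related to T-bet, did not pass either, at 59.20 and 50.06 CPM against 58.99 and 41.38 CPM (0.07 ± 0.101, adjusted p = 0.71).
On the falling side, Id3, the counterpart of Id2 in memory precursors, was at 5.72 and 4.93 CPM against 54.50 and 42.84 CPM (-3.24 ± 0.148). Of the cells with none of the 3 gate genes, those of replicate 2 had as little Id3, 4.57 CPM, and those of replicate 1 had 24.44 CPM. Bach2, a repressor of effector genes, was at 2.02 and 0.353 CPM against 8.76 and 8.16 CPM (-2.44 ± 0.344). Tox fell by 1.54, from 43.23 and 42.84 CPM in the others to 15.70 and 13.40 CPM, and Zeb1, the relative of Zeb2, from 21.12 and 22.44 CPM to 14.02 and 12.34 CPM. Zeb2 and Zeb1 thus stood on opposite sides.

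The list of memory precursor and lymphoid homing genes, without Il7r and Tcf7, had 0 of 20 tested genes higher and 18 lower, with a median of -1.35. Klf3 and Eomes were not called. Ccr7, the receptor that guides cells to the T cell zone, was at 0.897 and 3.88 CPM against 48.38 and 49.84 CPM, a log2 fold change of -4.89 ± 0.243 (adjusted p = 5.6e-11, edgeR). Its arms lie far apart.
Bcl2, the survival protein of long-lived T cells, was at 34.76 and 41.24 CPM against 177.2 and 128.8 CPM, a log2 fold change of -2.15 ± 0.111 (adjusted p = 7.7e-11). Slamf6, a surface receptor of TCF-1 positive cells, was at 67.28 and 48.29 CPM against 174.3 and 155.0 CPM (-1.48 ± 0.076). Il6ra, the interleukin-6 receptor, was nearly absent, at 0.785 and 1.06 CPM against 18.28 and 12.24 CPM (-4.28 ± 0.310). Smaller differences were measured for Cd27, a costimulatory receptor (-0.60 ± 0.057), and for Lef1, the partner of TCF-1, which at 78.04 and 86.01 CPM was still well measured in terminal effector cells (-0.67 ± 0.072).
The lowest count among the named genes was that of Dapl1, a gene known from naive and early memory T cells. Terminal effector cells of both libraries held 1 UMI of it among 11755234, and the other CD8-like cells 919 among 12568008, a ratio of 860 with a counting interval of 154 to 33990. Tnfsf8 (the CD30 ligand) was at 0.785 and 1.41 CPM against 33.49 and 24.77 CPM (-5.05 ± 0.257) and Nsg2, a vesicle protein, at 1.35 and 1.76 against 26.38 and 22.73 CPM (-4.13 ± 0.240). Rgs10, a brake on G protein signalling, was at 9.42 and 13.04 CPM against 102.7 and 54.79 CPM (-3.09 ± 0.181), and Gpr183, the oxysterol receptor that positions cells in follicles, at 15.92 and 17.98 CPM against 57.02 and 57.12 CPM (-1.80 ± 0.118).

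**Figure D3:**
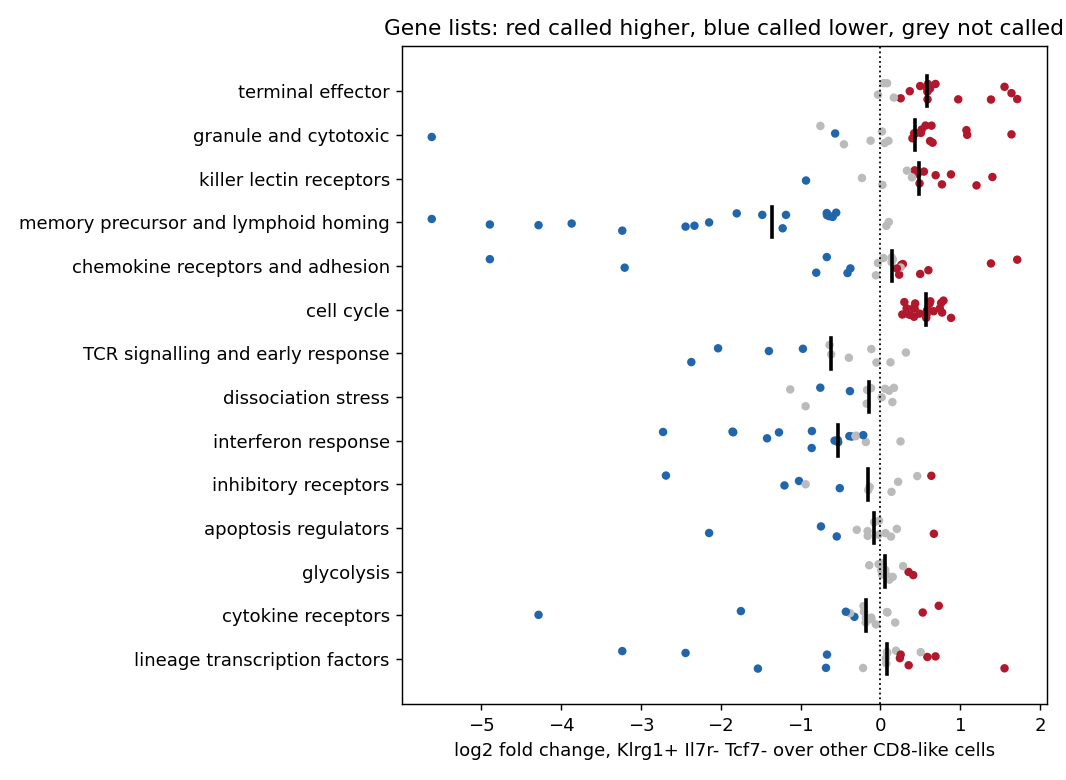
Each point is 1 tested gene of a list and gives its log2 fold change of terminal effector over other CD8-like cells, with red for genes called higher, blue for genes called lower and grey for genes not called; black ticks are list medians and the dotted line is the median of all tested genes. Memory precursor and homing genes lie to the left (median -1.35) and terminal effector (0.59), granule (0.43) and cell cycle genes (0.58) to the right.

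Receptors for migration divided. Of 21 tested chemokine receptors and adhesion molecules, 8 rose and 6 fell, with a median of 0.14. Besides S1pr5 and Cx3cr1, the integrin chains Itgb2 (515.8 and 457.9 CPM against 328.3 and 311.3 CPM, 0.60 ± 0.054) and Itgax (84.32 and 122.3 against 62.93 and 78.11 CPM, 0.50 ± 0.083) rose without overlap. S1pr1, the egress receptor that naive and memory cells use, did not pass, at 136.1 and 129.7 CPM against 130.2 and 127.1 CPM (0.04 ± 0.064, adjusted p = 0.78, edgeR).
A pair of receptors of inflamed tissue was lower in terminal effector cells. Cxcr3 was at 105.7 and 181.5 CPM against 175.2 and 269.3 CPM (-0.67 ± 0.063), higher in replicate 2 in both arms, and Cxcr6 at 212.7 and 242.5 CPM against 269.6 and 319.4 CPM (-0.38 ± 0.055, adjusted p = 7.2e-05). Cxcr6 was highest in the cells with none of the 3 gate genes, at 320.3 and 372.9 CPM, and lowest in those with Il7r or Tcf7 alone, at 199.0 and 210.8 CPM. Terminal effector cells thus lie between the 2 classes that lack Klrg1.

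Other genes led the rise that are not on any of the lists. As3mt, an arsenite methyltransferase, was at 67.61 and 78.26 CPM against 28.24 and 20.40 CPM (1.46 ± 0.129, adjusted p = 2.2e-07, edgeR), and Esm1, which encodes the proteoglycan endocan, at 71.31 and 76.14 CPM against 24.41 and 33.81 CPM (1.39 ± 0.109). Apobec2, of the cytidine deaminase family, was at 95.31 and 55.70 CPM against 41.70 and 30.02 CPM (1.09 ± 0.099), and Ifitm10 at 61.56 and 48.65 CPM against 30.65 and 23.61 CPM (1.0 ± 0.107). The rule that named these 4 asked for no overlap between arms, which 17.8% of tested genes met in this direction.

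Genes of cell division were higher as a group: 22 of 22 tested rose, with a median of 0.58. Mki67, the Ki-67 antigen, was at 119.8 and 100.5 CPM in terminal effector cells and 78.80 and 65.57 CPM in the others (0.59 ± 0.075, adjusted p = 1.5e-05, edgeR), and Ccna2, cyclin A2, at 138.3 and 112.1 CPM against 73.66 and 60.91 CPM (0.88 ± 0.073).
Depth differed between the arms as given above, and its part in this group was not tested apart from which cells enter. After thinning each cell to 2000 UMIs before the gate, which also leaves fewer cells in it (1259 and 298), 4 of 22 passed and the median was 0.17. Among cells between the 25th and 75th percentile of UMI totals, which leaves out the deepest cells, 9 passed (median 0.32). In a different comparison, against the cells with none of the 3 gate genes, 12 passed (median 0.21). By contrast, 13 of 18 terminal effector list genes and 17 of 19 memory precursor genes passed after thinning.
In thinned cells, a UMI of Mki67, Top2a, Ccnb2 or Birc5 was in 31.1% and 41.9% of terminal effector cells, in 26.3% and 38.2% of cells with none of the 3, and in 13.1% and 17.1% of cells with Il7r or Tcf7 alone. Before thinning the terminal effector shares were 39.2% and 56.1%. Replicate 2 was above replicate 1 in each of these classes.

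Within the terminal effector cells, those with a UMI of the 4 division genes (683 and 256 cells) had less of the markers per UMI than those without (1060 and 200 cells). S1pr5 was at 106.1 and 42.97 CPM in dividing cells and at 221.0 and 130.3 CPM in the rest. Ccl5 was at 20110 and 11770 CPM against 52470 and 34800 CPM, and Zeb2 at 176.1 and 149.6 against 292.9 and 291.6 CPM. Gzmb went the other way, at 1779 and 2750 CPM in dividing cells and 1338 and 2247 CPM in the rest, while Gzmk was near level, at 338.7 and 341.2 against 356.1 and 351.3 CPM. The directions were the same in both libraries. These values are a description: median UMIs were 6436 and 7048 in the first kind of cell and 3785 and 4485 in the second, and the part of this difference in depth was not tested.

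Genes induced by interferon were lower: 0 of 17 rose and 13 fell, with a median of -0.54. Ifit1, which binds viral RNA, was at 4.82 and 7.40 CPM against 15.32 and 12.82 CPM (-1.42 ± 0.222, adjusted p = 1.6e-04, edgeR). Isg15 did not pass, at 32.74 and 43.36 CPM against 36.12 and 50.42 CPM (-0.18 ± 0.106). DESeq2 called 3 of the 17, and 4 of 14 passed after thinning.
Of the early genes of T cell receptor signalling, 0 of 11 rose and 4 fell. Cd69, an early activation marker that holds cells in tissue, was at 23.88 and 57.46 CPM against 58.99 and 81.60 CPM (-0.97 ± 0.137), and Myc at 5.27 and 10.58 CPM against 17.84 and 16.61 CPM (-1.40 ± 0.219). Of the genes that cell isolation is known to induce, 2 of 12 fell (Jun and Zfp36). DESeq2 called 0 of the 11 early genes higher and 1 lower, and 0 of these 12.

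Inhibitory receptors did not move together: of 11 tested, Havcr2 (TIM-3) rose and Cd200, Btla, Ctla4 and Pdcd1 fell. Havcr2 was at 37.45 and 41.95 CPM against 20.47 and 34.68 CPM (0.64 ± 0.128, adjusted p = 1.7e-03, edgeR), a call that was lost with DESeq2 and after thinning. Pdcd1, encoding PD-1, was at 21.64 and 40.54 CPM against 31.63 and 54.50 CPM (-0.51 ± 0.110), and Lag3 did not pass (-0.15 ± 0.087).
Among apoptosis regulators, 3 of 13 fell, Bcl2 and the death-promoting genes Bbc3 and Bcl2l11, and 1 rose, Pmaip1 (41.38 and 39.83 against 25.06 and 26.23 CPM, 0.67 ± 0.110). Bcl2l11, encoding Bim, was at 27.36 and 20.45 CPM against 36.23 and 37.01 CPM (-0.55 ± 0.121). Of 17 cytokine receptor chains 2 rose and 4 fell: Il18rap, a chain of the interleukin-18 receptor, was at 139.2 and 82.49 CPM against 71.03 and 69.07 CPM (0.73 ± 0.105), and Il2rb, shared by the interleukin-2 and interleukin-15 receptors, fell by 0.33, from 143.4 and 122.1 to 111.2 and 105.8 CPM. Of 16 glycolysis genes 2 rose (Pfkp and Slc2a3, by 0.41 and 0.35) and 0 fell, near the background of 7.28% higher and 7.58% lower over all tested genes. With DESeq2, 0 inhibitory receptors were higher and 1 was lower. Apoptosis regulators and cytokine receptor chains gave the same DESeq2 counts, and 0 glycolysis genes were called.

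Markers of other cells differed between the arms and are given for that reason. Haemoglobin genes and Alas2 summed to 26.9 and 8.81 CPM in terminal effector cells and 507 and 10.8 CPM in the others, and in replicate 1 a single cell of the others held 46.7 to 65.8% of the UMIs of each of the 4 haemoglobin genes. The 5 B cell genes summed to 27.2 and 10.9 CPM against 102.8 and 12.8 CPM, with Cd79a and Ms4a1 at 0 in replicate 2. The 8 myeloid genes summed to 234.7 and 248.2 CPM against 288.2 and 226.7 CPM. Cst3 alone held 170.0 and 186.5 CPM of the myeloid sum in terminal effector cells. The gamma-delta T cell genes, with Sox13 at 0 in both libraries, summed to 4.48 and 0.705 CPM against 1.31 and 2.33 CPM, and the 7 helper cell genes to 81.2 and 93.1 CPM against 135.8 and 157.7 CPM. Icos alone held 62.57 and 74.38 CPM of the helper sum in terminal effector cells. The gate asks for no Cd4 UMI in either arm, and CD4-like cells were at 662.7 and 808.5 CPM for the last list. In replicate 2 the B cell and erythroid sums were near level between the arms, and the helper genes were lower in terminal effector cells in both libraries.
As an alternative, cells that held an erythroid, B cell, myeloid or Cd40lg UMI were left out of both arms. Of 9641 genes tested, 745 were higher and 746 lower. Then 13 of 18 terminal effector genes rose, 18 of 20 memory precursor genes fell and 11 of 17 interferon genes fell.

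The sharper contrast, set against the 743 and 196 cells with Il7r or Tcf7 and no Klrg1, called 1252 genes higher (13.8% of 9052 tested) and 1304 lower (14.4%), 28.2% in all. It shares the terminal effector sums with the first comparison. DESeq2 called 366 and 357. Gzma was at 9402 and 6278 CPM against 888.6 and 653.6 CPM, a log2 fold change of 3.26 ± 0.082 (adjusted p = 1.2e-55, edgeR). S1pr5 was at 15.35 and 9.53 CPM in the opposite cells (3.19 ± 0.177), Zeb2 at 27.45 and 24.37 CPM (2.96 ± 0.141) and Cx3cr1 at 37.79 and 29.66 CPM (2.84 ± 0.133).
Havcr2 was at 6.20 and 7.42 CPM in the opposite cells (2.47 ± 0.253). Of the genes that did not pass in the first comparison, Id2 and Lag3 were called higher here and Isg15 lower. The log2 fold change was 0.42 ± 0.146 for Lag3 and -0.49 ± 0.159 for Isg15, and the arms overlap for both. Of the granule genes 13 of 18 were higher and 3 lower (Xcl1, Gzmm and Lamp1), and of the interferon genes 14 of 16 were lower. Cell cycle genes were higher in 22 of 22, with a median of 1.24 beside -0.016 over all genes. Izumo1r, a folate receptor of regulatory and memory-like cells, was at 3.25 and 3.53 CPM in terminal effector cells and 66.42 and 34.96 CPM in the opposite cells (-4.20 ± 0.242).

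An alternative chosen after seeing the data set terminal effector cells against the 806 and 356 cells with none of the 3 gate genes. Of 9103 genes tested, 259 were higher in terminal effector cells and 237 lower. The terminal effector list then had 11 of 18 higher (median 0.33) and the memory precursor list 14 of 20 lower and 1 higher (median -0.98). In this class S1pr5 was at 68.05 and 24.39 CPM, Zeb2 at 102.5 and 81.29 CPM, Cx3cr1 at 149.5 and 91.96 CPM and Slamf6 at 119.0 and 111.3 CPM. Each lies between the value of the terminal effector cells and that of the cells with Il7r or Tcf7 alone.

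Terminal effector cells also differed among themselves with their own Klrg1 count, which is a part of the rule and is described without a test. Those with 1, 2 and 3 or more Klrg1 UMIs numbered 570, 445 and 728 in replicate 1 and 149, 123 and 184 in replicate 2. Gzma was at 8156, 9736 and 9989 CPM across these steps in replicate 1 and at 4630, 5851 and 7691 CPM in replicate 2, after 3813 and 2180 CPM in the cells just outside with 0 Klrg1 UMIs. S1pr5 went from 139.7 through 156.9 to 173.3 CPM and from 45.54 through 70.28 to 88.88 CPM. Cx3cr1 went from 272.3 through 321.2 to 323.0 CPM and from 158.8 through 187.0 to 207.9 CPM. Zeb2 was near level in replicate 1, at 228.5, 232.8 and 230.6 CPM, and was at 164.6, 210.8 and 206.3 CPM in replicate 2. Prf1 was at 30.12, 29.62 and 21.18 CPM and at 18.68, 29.17 and 23.65 CPM. Cxcr6 went down, from 264.5 through 239.7 to 167.3 CPM and from 342.1 through 218.8 to 187.6 CPM, and Cxcr3 from 133.0 to 86.87 CPM and from 225.4 to 145.1 CPM. Median UMIs per cell rose along the steps, from 3866 to 4697 and from 5173 to 5946, so the strata also differ in depth.
On the other side of the gate, cells with Klrg1 and exactly 1 Il7r or Tcf7 UMI (211 and 48 cells) had Gzma at 5502 and 5055 CPM, S1pr5 at 73.36 and 28.56 CPM and Bcl2 at 47.84 and 39.27 CPM. Their Bcl2 was near that of terminal effector cells, and their S1pr5 near that of cells with 0 Klrg1 UMIs.

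**Figure D4:**
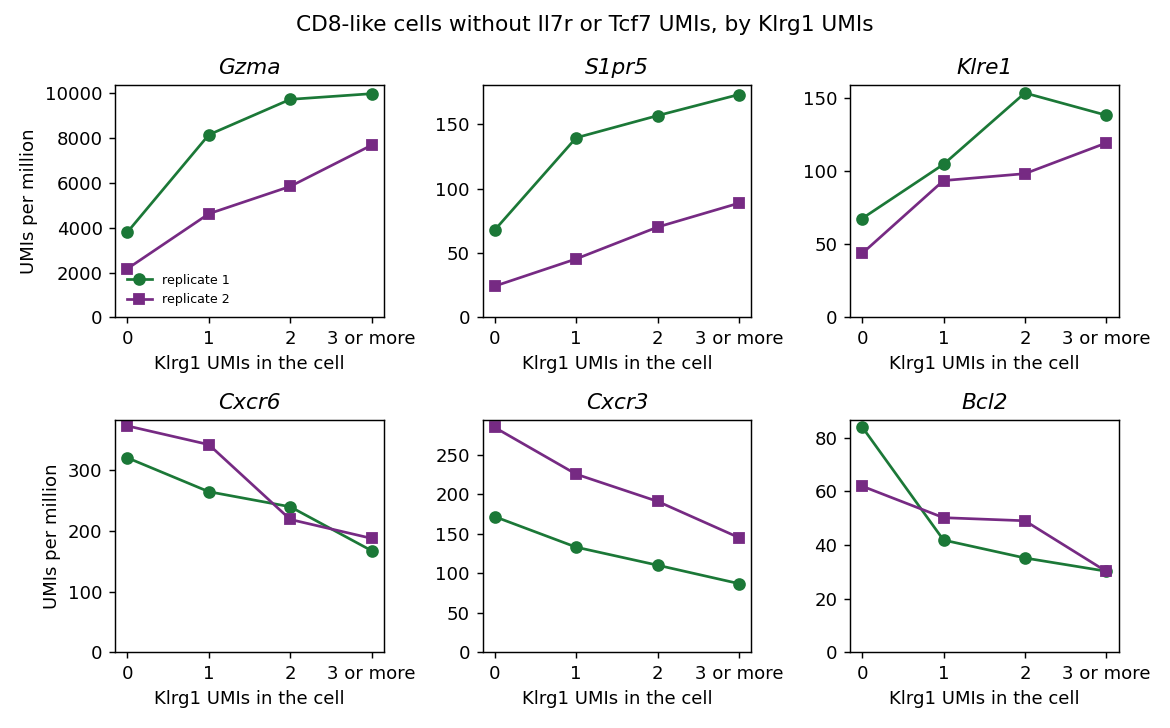
Level (CPM, axes from 0) of 6 genes in CD8-like cells without Il7r or Tcf7 UMIs, summed by the number of Klrg1 UMIs in the cell; circles are replicate 1 and squares replicate 2. Gzma and S1pr5 climb with Klrg1, and Cxcr6, Cxcr3 and Bcl2 decline, in both replicates; the points at 0 Klrg1 UMIs are outside the gate.

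The same gate on Klrg1, Il7r and Tcf7 was applied to CD4-like cells, to ask whether its differences depend on the lineage. Only 46 and 14 CD4-like cells passed, 266521 and 100365 UMIs, so that single cells weigh heavily. They were deeper, with median UMIs of 4636 and 7138 against 4144 and 5094 in all CD4-like cells. Cells with both Cd4 and Cd8 UMIs had medians of 6293 and 7529. The gate called 299 genes higher (3.08% of 9717 tested) and 332 lower (3.42%), 6.49% in all, against the other CD4-like cells, and DESeq2, which scales the libraries differently, called 321 and 178. In the gated CD4-like cells Gzma was at 1407 and 298.9 CPM against 71.43 and 37.78 CPM (4.0 ± 0.156, adjusted p = 1.7e-30, edgeR). In replicate 2, 1 of the 14 gated cells held 83.3% of the 30 Gzma UMIs and only 5 cells had any, and S1pr5 rested on 3 UMIs in 2 cells. Cx3cr1 was at 198.9 and 89.67 CPM against 8.84 and 3.04 CPM (4.47 ± 0.288), and Zeb2 at 105.1 and 59.78 against 7.68 and 3.37 CPM (3.76 ± 0.365). The terminal effector list had 12 of 18 higher and 0 lower, with a median of 1.63 beside -0.135 over all genes.
Near-empty droplets held Cd4 at 73.55 to 131.4 CPM, and the part of free Cd4 RNA in these 46 and 14 cells was not tested. Their absolute levels of Gzma, Cx3cr1 and Zeb2 were below those of the terminal effector cells in both libraries.

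The difference of the gate between lineages was tested itself in 1 fit over all 8 sums. The log2 fold change across the gate, taken with its sign, was higher in CD8-like than in CD4-like cells for 34 genes (0.35% of tested) and lower for 101 (1.04%), 1.39% in all. A higher value can be a smaller fall, and for Isg15 it was -0.18 among CD8-like cells against -2.08 for the CD4-like ones. With size factors by relative log expression the split was 19 and 112, DESeq2 called 4 and 89, and without the block 0 genes were called, with 369 and 256 at an unadjusted p under 0.05. Of the terminal effector list 10 of 18 had the lower fold change in CD8-like cells and 0 the higher (7 called with DESeq2). For Cx3cr1, the cells outside the gate were at 113.9 and 75.19 CPM among CD8-like and at 8.84 and 3.04 CPM among CD4-like cells. Cx3cr1 differed by -3.08 ± 0.284 (adjusted p = 1.5e-12, edgeR) and S1pr5 by -3.51 ± 0.528. Of the memory precursor list 0 of 20 passed with edgeR or DESeq2, and 2 were higher and 2 lower at an unadjusted p under 0.05 with edgeR, which does not show that the lineages are alike.
Gzmm parted in sign. It was lower in terminal effector than in other CD8-like cells, as given above. In gated CD4-like cells it was higher, at 33.77 and 29.89 CPM against 5.65 and 4.05 CPM (difference -3.11 ± 0.570, adjusted p = 2.4e-04, edgeR). These gated CD4-like values rest on few UMIs: in the 2 libraries together, 3 UMIs make 8.18 CPM there. Ctla2a, a cathepsin inhibitor with a close copy, also parted in sign. It was at 378.0 and 527.7 CPM in terminal effector cells against 590.4 and 621.1 CPM. In gated CD4-like cells it was at 202.6 and 827.0 CPM against 67.51 and 107.6 CPM (difference -2.64 ± 0.238).

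**Figure D5:**
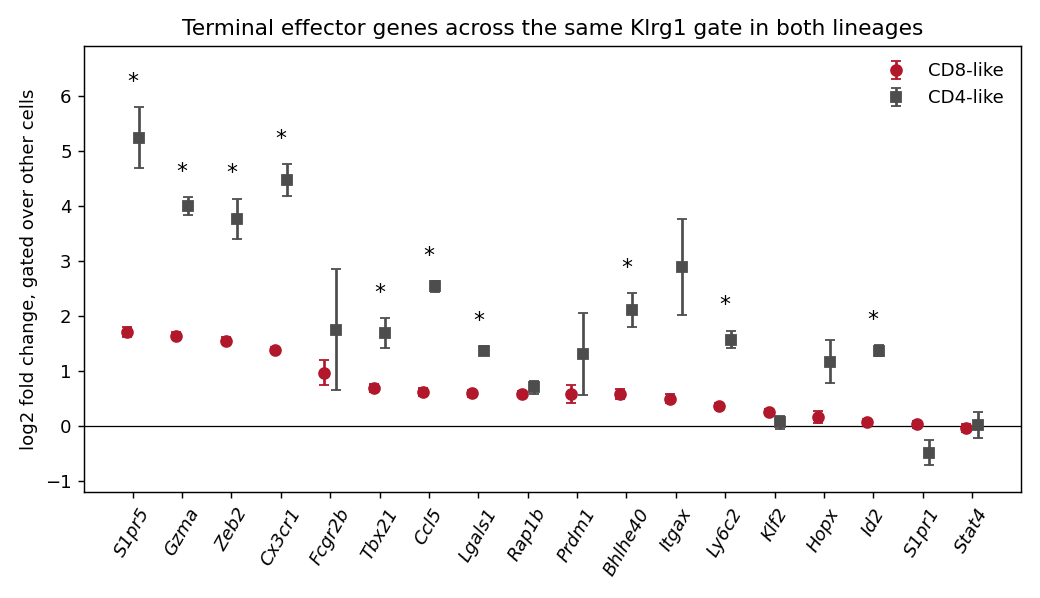
Log2 fold change with its standard error of each terminal effector list gene across the Klrg1 gate, red circles for CD8-like cells (fit of 4 sums) and grey squares for CD4-like cells (fit of 8 sums); stars mark the 10 genes whose difference between lineages passed the test. The grey points of S1pr5, Gzma, Zeb2 and Cx3cr1 lie at 3.76 to 5.23 and the red at 1.38 to 1.71.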

How the data were processed

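The authors deposited raw UMI counts, with a row for each gene and a column for each barcode, from the 10x 3' version 2 kit (labels' protocols). The submitters' processing notes name bcl2fastq 2.17, Cell Ranger without a version, and mm10. Empty droplets are included. Cells are barcodes with 500 or more genes and no more than 10% of UMIs from mitochondrial genes. No doublet caller was run; cells with both Cd4 and Cd8 UMIs are outside the classes, and leaving out the top 5% of UMI totals was an alternative. Capture wells were read from the number at the end of each barcode. Counts were summed per library and class, since cells are not replicates, and tested with edgeR 4.0.16 (TMM, filterByExpr, quasi-likelihood, library block) in R 4.3.3. The block is natural because both arms of a comparison come from the same library, with the wells of replicate 1 summed. Standard errors were derived from the fold change and its F statistic. Cd4, Cd8a, Cd8b1, Klrg1, Il7r and Tcf7 were left out of the tests. Levels are counts scaled to 1000000 UMIs of the class's own total (CPM). DESeq2 1.42.0 was an alternative, its missing adjusted p kept as missing. The code was tested on simulated data. Members and gene lists were chosen with earlier results of these data known. Named genes are the markers, 2 to 4 per list, and up to 12 per direction (8 in the other comparisons) with the largest called changes. The last kind also needed at least 20 CPM in the higher arm and no overlap. For the lineage difference, 20 CPM in any of the 4 classes of each library sufficed, and overlap was not considered. Further list genes, the gate classes' levels and Lag3, Isg15, Cxcr6 and S1pr1 were chosen after their values were seen. Some genes of the lists are not reported here. Gene positions are from GENCODE on GRCm38.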

Additional observations from a re-analysis of the deposited data

Results flagged for a closer look

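The effect of the Klrg1 gate differed between lineages, by the test of the difference itself (edgeR, CD8-like minus CD4-like, log2), for 16 genes named by the rule for the lineage difference. The gated CD4-like arm holds 46 and 14 cells throughout.

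Higher differences were measured for Fars2 (9.70) and Mfap3 (9.47), which had 0 UMIs in gated CD4-like cells, so that these fitted values depend on the prior count and are no bound. Sertad3 (3.62) and Matk (3.29) had 0 UMIs there in replicate 2. The others were Trp53inp1 (2.28), Abcb9 (1.92), the interferon-induced Isg15 (1.91) and Bod1l (1.67).

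Lower differences were measured for Ccl3 (-4.58) and Ccl4 (-4.56), where 1 gated CD4-like cell of replicate 2 held 82.4% and 72.5% of the UMIs. They were also measured for S1pr5 (-3.51), Gzmm (-3.11), Cx3cr1 (-3.08), the macrophage complement gene C1qa (-2.71), Ctla2a (-2.64) and Hid1 (-2.54).

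In the GP66 libraries, which no comparison used, cells passing the terminal effector gate were 4.2% of cells (56 cells) in the Thpok-deleted library of day 7 and 0.408% (3 cells) in that of day 30. The Thpok-intact GP66 libraries held 1 and 2 such cells at day 7 (0.0442% and 0.0927%) and 0 of 725 at day 30. Each is 1 library, with no replicate. Median UMIs per cell were 5866 and 2440 in the Thpok-deleted libraries of day 7 and day 30. They were 5604 and 5276 in the Thpok-intact ones of day 7 and 2017 in that of day 30. The part of depth in these shares was not tested. Without the conditions on Cd8 and Cd4 UMIs, the gate held 20.8% and 10.3% of cells in the Thpok-deleted libraries. It then held 0.442%, 1.07% and 0.138% in the Thpok-intact ones.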

How the results depend on the processing

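With 1 residual degree of freedom, counts of called genes depended on the method more than directions did. Terminal effector against other CD8-like cells gave 1473 calls, and 7 without the replicate block, 297 with DESeq2, 574 after thinning to 2000 UMIs, 789 between the 25th and 75th percentile of UMI totals, 875 and 708 with well 1 or well 2 alone standing for replicate 1, and, chosen after seeing the data, 496 against cells with none of the 3 gate genes. Against cells with Il7r or Tcf7 alone there were 2556 calls, and 654 without the replicate block, 723 with DESeq2 and 1211 after thinning. The CD4-like gate gave 631, and 64 without the block and 123 after thinning; the lineage difference gave 135, and 0 and 16. Leaving out a library leaves no residual degrees of freedom, so such counts were not run. Member shares by other gates were 36.45% and 28.6% (thinned), 32.45% and 28.2% (2 Klrg1 UMIs), 57.15% and 49.2% (Klrg1 alone) and 50.0% (well 2 of replicate 1). Of 1263 alternative values of 66 single genes, 1085 were counted as unchanged, 171 lost the call (58 without the block), 2 gained it and 5 turned. Values with 1 library left out carry no p-value and were judged by direction alone. The haemoglobin genes are not among the 66. Those that turned were Klra6 (0.17) and Lyz2 (0.13) without replicate 1, where both were lower without replicate 2 (-1.54 and -3.19). The others were Jun (0.01) against cells with none of the 3 genes, Il12rb2 (-0.10) after thinning and Tyrobp (0.21) between those percentiles. The causes were not tested.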
